A study of Mus musculus with 6 samples.

Results

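The genes described here are the subunits of the acinar transcription factor complex PTF1 and the factors that act beside it, namely Ptf1a, Rbpjl, Rbpj, Tcf3, Tcf12, Bhlha15 and Nr5a2. They were taken by symbol from the deposited table, which held all 7 of them among 10245 genes. The RNA came from whole mouse pancreas. The 3 control mice had the genotype Ptf1a(CreER/+) and were 4 months old at sacrifice, and the 3 Ptf1a cKO mice had the genotype Ptf1a(CreER/fl) and were 5 months old, so age followed genotype. All 6 mice were gavaged with tamoxifen (TM) at 0.25 mg per g on consecutive days and were killed on day 14. The CreER allele was inserted at Ptf1a itself and makes no PTF1A protein, so the control mice were already heterozygous for Ptf1a and a wild-type level was not measured. Cre was expressed from the Ptf1a locus, and the study's mice of this kind also carried an R26R-EYFP reporter. The control libraries came from 1 male (replicate 1) and 2 females, and the Ptf1a cKO libraries from 1 male (replicate 2) and 2 females. The identifiers of the mice shared a prefix within each group and not between the groups, and what the prefix stands for is not given in the sources used here.

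PTF1 is a complex of 3 DNA-binding proteins. PTF1A is a tissue-restricted bHLH protein that pairs with a broadly expressed E protein, such as the products of Tcf3 (E2A) and Tcf12 (HEB), to bind an E-box. The third subunit binds a neighboring TC-box and is RBPJ, the DNA-binding protein of Notch signaling, in the embryonic pancreas, and its acinar-restricted paralog RBPJL in mature acinar cells. The complex is known to drive genes of digestive enzymes and to act on Ptf1a and Rbpjl themselves. BHLHA15, also called MIST1, is a bHLH factor of secretory cells that scales up the machinery of granules and secretion. NR5A2, also called LRH-1, is a nuclear receptor that works with PTF1 at acinar genes.

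The values are normalized read counts that the authors scaled across libraries, with 1 value per gene and library, and they no longer carry the sequencing depth. The digestive enzymes Cpa1, Cela1, Cel, Pnlip, Ctrb1 and Prss2, used to check the tissue, summed to at least 7692300 normalized counts in every control library and to between 1045970 and 3208630 in the Ptf1a cKO libraries. A list of 31 measured digestive enzymes and secreted acinar proteins made up between 78.3% and 81.4% of all normalized counts on genes in the controls and between 37.8% and 63.1% in Ptf1a cKO, where replicate 2 held the most. Reads with more than a single alignment were counted for no gene, so enzyme reads of that kind are missing from this share and from sums of the list. In RNA from whole tissue, fewer acinar cells and less RNA per acinar cell cannot be told apart. The comparison of the groups used limma on log2 values, with p-values adjusted by the Benjamini-Hochberg method over all 10245 genes. Genes with an adjusted p under 0.05 passed the test, which 33.9% of all genes did (17.1% as higher and 16.8% as lower in Ptf1a cKO). With 3 libraries against 3, an exact permutation test of a single gene cannot give a two-sided p under 0.10.

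Ptf1a, Rbpjl, Bhlha15 and Nr5a2 fell, Tcf12 rose, and Tcf3 and Rbpj did not pass the test. For 6 of the 7 genes, all but Tcf3, the 3 Ptf1a cKO values lay on a single side of the 3 control values, which was also true of 50.8% of all genes. The values lay below the controls for 5 of them, as for 24.3% of all genes, and above for Tcf12, as for 26.5%. In terms of the complex, transcripts of the bHLH subunit that defines PTF1 and of its acinar RBPJL subunit were both reduced. No fall of an E protein gene passed the test. These values are of RNA and do not give the levels of the proteins.

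**Figure D1:**
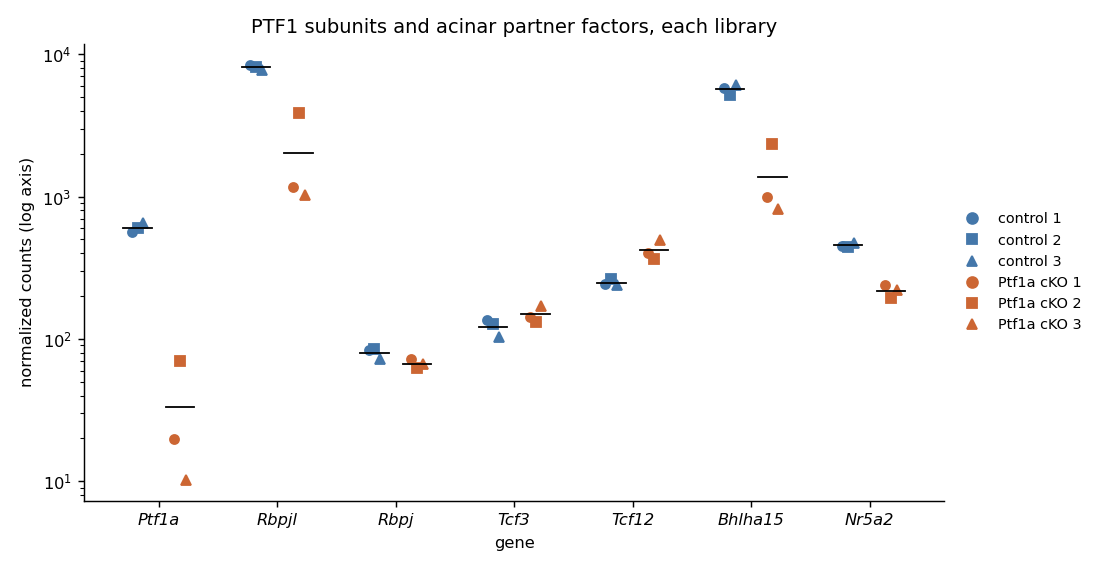
Normalized counts (log axis) of the 7 genes in each control library (blue) and each Ptf1a cKO library (orange), with a symbol for each replicate number and black lines at the group means. Ptf1a, Rbpjl and Bhlha15 are lowest in Ptf1a cKO replicates 1 and 3 and closer to the controls in replicate 2, while Nr5a2 sits between 194 and 239 in all 3.

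Ptf1a, the gene targeted by the deletion, is on chromosome 2 of GRCm38 from 19445663 to 19447501 (plus strand). It had 566, 601 and 652 normalized counts in control replicates 1, 2 and 3 and 19.8, 70.1 and 10.2 in Ptf1a cKO replicates 1, 2 and 3. The groups were far apart, and within Ptf1a cKO the highest library held 6.86 times as much as the lowest. This was a log2 fold change of -4.41 (limma, standard error 0.49 and adjusted p = 3.29e-04), and among all genes only 1 had a larger fall. Relative to the control mean, the 3 Ptf1a cKO libraries kept 3.27%, 11.6% and 1.69% of the Ptf1a signal. With Ptf1a cKO replicate 2 left out the change was -5.10, and with replicate 3 of that group left out it was -3.88. An antisense gene, Ptf1aos, overlaps Ptf1a over 1012 bases and was not analysed here. Whether the counting used strand is not given in the sources used here, so reads from the antisense gene cannot be told apart from those of Ptf1a.

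Rbpjl encodes the RBPJ paralog that serves as the DNA-binding partner of PTF1A in mature acini, and lies on chromosome 2 from 164403141 to 164415448 (plus strand). Rbpjl reached 8430, 8194 and 7792 normalized counts in the control mice, against 1161, 3868 and 1029 in the Ptf1a cKO mice. Ptf1a cKO replicate 2 stood at 47.5% of the control mean, and replicates 1 and 3 at 14.3% and 12.6%. The spread of the controls was small (SD 4.0% of the mean) and that of the Ptf1a cKO libraries was 79.4% of theirs. The fall of -2.29 on the log2 scale passed the test (limma, standard error 0.42 and adjusted p = 0.00356), and was -2.89 without Ptf1a cKO replicate 2. Matn4, a matrilin gene on the other strand, overlaps Rbpjl over 2020 bases in the GENCODE annotation, and its reads cannot be told apart from those of Rbpjl with the counting unknown. Matn4 itself had 858, 821 and 683 normalized counts in the controls and 106, 366 and 109 in Ptf1a cKO.

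Rbpj, the broadly expressed paralog, lies on chromosome 5 from 53466152 to 53657362 (plus strand). It held 83.3, 84.9 and 72.5 normalized counts in the controls and 72.1, 62.5 and 66.6 in Ptf1a cKO. The lowest control value and the highest Ptf1a cKO value were nearly equal, so the groups stood apart only barely. The log2 fold change of -0.25 (standard error 0.14) did not pass the test (adjusted p = 0.191, limma). The annotation lists 2 processed pseudogenes of Rbpj, and reads with more than a single alignment were not counted for any gene.

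Tcf3 and Tcf12 encode the E proteins E2A and HEB. Tcf3, on chromosome 10 from 80409514 to 80433647 (minus strand), held 135.3, 127 and 103 normalized counts in the controls and 143, 132 and 171 in Ptf1a cKO. Its groups overlapped, and the log2 fold change of 0.29 (standard error 0.15) did not pass the test (adjusted p = 0.166, limma). Tcf12, on chromosome 9 from 71842688 to 72111871 (minus strand), held 243, 262 and 240 normalized counts in the controls and 399, 367 and 496 in Ptf1a cKO. Every Ptf1a cKO library was above every control library. The rise of 0.74 on the log2 scale passed the test (limma, standard error 0.13 and adjusted p = 0.0031), and it stayed between 0.62 and 0.83 with single libraries left out.

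Bhlha15 lies on chromosome 5 from 144190286 to 144194441 (plus strand). Its controls stood at 5830, 5154 and 6036 normalized counts, and its Ptf1a cKO values were 986, 2348 and 814, or 17.4%, 41.4% and 14.3% of the control mean. As for Rbpjl, replicate 2 kept the most and the other Ptf1a cKO libraries lay close together. The fall of -2.19 on the log2 scale passed the test (limma, standard error 0.33 and adjusted p = 0.00146), and was -2.66 without Ptf1a cKO replicate 2. Nr5a2 lies on chromosome 1 from 136842571 to 136960448 (minus strand). It held 450.4, 444 and 469 normalized counts in the controls and 239, 194 and 222 in Ptf1a cKO, or 52.5%, 42.8% and 48.9% of the control mean. All 3 Ptf1a cKO libraries were reduced by a similar amount, with an SD of 10.3% of their mean. The fall of -1.05 on the log2 scale passed the test (limma, standard error 0.11 and adjusted p = 3.08e-04), and lay between -1.12 and -0.97 with single libraries left out.

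These changes are on the scale set by the authors, which holds the median gene nearly level (median log2 fold change 0.036). When every library was given the same total instead, the median moved to 1.49. On that scale the log2 fold changes were -3.04 for Ptf1a, -0.79 for Rbpjl, -0.70 for Bhlha15, 0.43 for Nr5a2, 1.19 for Rbpj, 1.75 for Tcf3 and 2.22 for Tcf12. Ptf1a, Rbpjl and Bhlha15 thus stayed lower on either scale, the sign of Nr5a2 and Rbpj turned with the scale, and both of these stayed below the median gene.

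**Figure D2:**
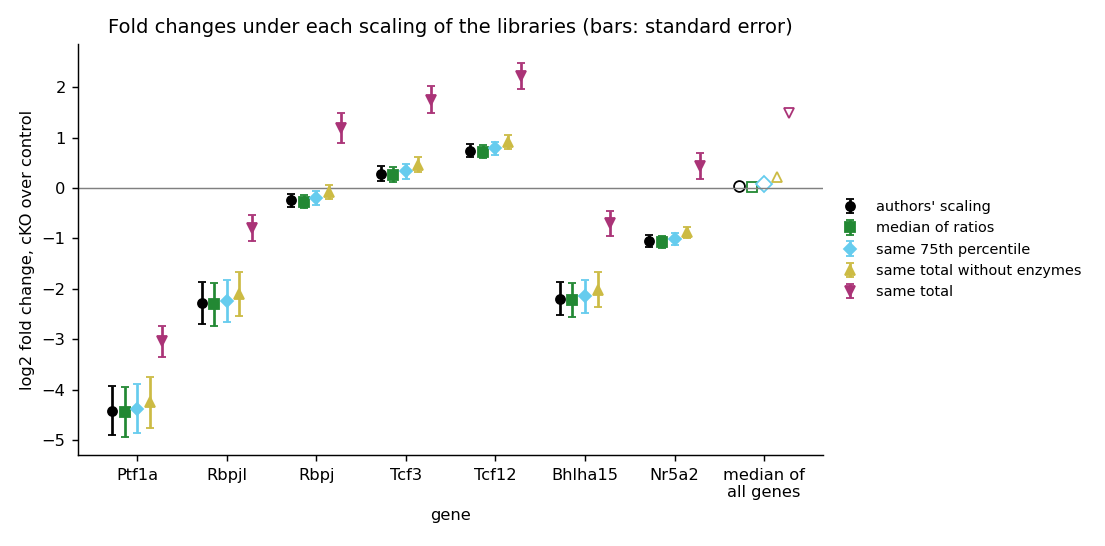
Log2 fold change (Ptf1a cKO over control) of each gene under the authors' scaling and 4 others, with bars for the standard error, and the median over all genes as open symbols. Giving every library the same total moves all 7 genes and the median gene upward, to 1.49 for the median.

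How far each Ptf1a cKO library followed its residual Ptf1a differed among the genes. Residual Ptf1a was highest in replicate 2, then in replicate 1, then in replicate 3. Rbpjl and Bhlha15 stood in the same order, as did 20.1% of all genes and 47.4% of the 1724 genes that passed the test as lower. Tcf3 and Tcf12 stood in the reverse order, as did 18.8% of all genes. Nr5a2 and Rbpj were highest in replicate 1 and lowest in replicate 2. Replicate 2 was therefore the lowest of the Ptf1a cKO libraries for 4 of the 7 genes and the highest for 3, Ptf1a itself among them, against 34.3% and 34.6% of all genes. With 3 libraries no correlation can be tested, and replicate 2 was also the only male of its group, so library and sex cannot be told apart. With the 4 female mice alone the log2 fold changes were -5.14 for Ptf1a, -2.87 for Rbpjl, -2.63 for Bhlha15, -0.98 for Nr5a2 and 0.82 for Tcf12, and each passed the test (adjusted p at most 0.00975, limma).

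The summed digestive enzymes and secreted acinar proteins stood at 21.5%, 35.1% and 13.0% of their control mean in Ptf1a cKO replicates 1, 2 and 3, the order of Ptf1a. Of the 31 genes in that list, 22 stood in this order. Within each library the genes were therefore also set against this acinar sum. Relative to it, Ptf1a changed by -2.50, -1.55 and -2.54 (log2) in the 3 Ptf1a cKO libraries. Ptf1a is the gene that Cre deletes, so a fall of its transcripts beyond those of the enzymes was set by the design. Rbpjl stood at -0.59, 0.43 and -0.036, on both sides of the controls (-0.079 to 0.13), and Bhlha15 at -0.31, 0.23 and 0.15 against -0.22 to 0.28. Nr5a2 stood at 1.29, 0.29 and 1.92, above all controls (-0.12 to 0.24). The sum itself fell, so a gene that kept its level also rises against it. Rbpj, Tcf3 and Tcf12 stood higher than Nr5a2 in each Ptf1a cKO library (differences in group means 1.97, 2.50 and 2.96). The differences in group means were -2.20 for Ptf1a, 1.17 for Nr5a2, -0.066 for Rbpjl and 0.026 for Bhlha15 (two-sided exact permutation p = 0.10, 0.10, 0.90 and 1.0, and 0.14, 0.14, 1.0 and 1.0 adjusted over the 7 genes). With 3 libraries against 3 this test cannot give a p under 0.10, so no difference could pass at 0.05, whatever its size. The SD of Rbpjl relative to the sum was 0.51 among the Ptf1a cKO libraries.

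**Figure D3:**
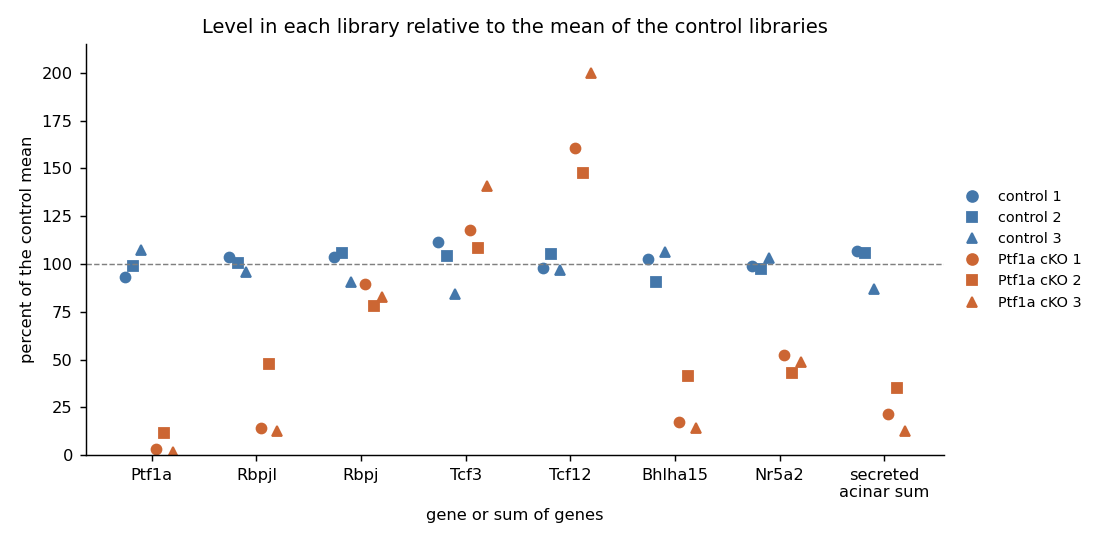
Level of each gene in each library as a percent of the control mean (dashed line at 100%), with the sum of 31 digestive enzymes and secreted acinar proteins at the right. Rbpjl, Bhlha15 and the sum are highest in replicate 2 among the Ptf1a cKO libraries, and Nr5a2 lies between 42.8% and 52.5% in all of them.

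Ratios within a library do not depend on the scaling where each library is scaled by a single factor. Whether the authors' scaling was of that kind is not given in full in the sources used here. The number of Rbpjl counts per Rbpj count was 101, 96.5 and 107 in the controls and 16.1, 61.9 and 15.5 in Ptf1a cKO. Every Ptf1a cKO library was below every control library, with a difference of -2.04 on the log2 scale, or 4.11-fold (two-sided exact permutation p = 0.10, the smallest possible, and 0.20 adjusted over 4 ratios). The ratio fell least in replicate 2. Rbpjl is restricted to acinar cells and Rbpj is broadly expressed. In whole tissue, fewer acinar cells and a shift between the paralogs within cells cannot be told apart. The ratio of Bhlha15 to Rbpjl was 0.69, 0.63 and 0.77 in the controls and 0.85, 0.61 and 0.79 in Ptf1a cKO. The groups overlapped and the log2 difference was 0.092 (SD 0.15 in control and 0.26 in Ptf1a cKO, two-sided exact permutation p = 0.70). The ratio of Nr5a2 to Bhlha15 was 0.077, 0.086 and 0.078 in the controls and 0.24, 0.083 and 0.27 in Ptf1a cKO. It was higher in Ptf1a cKO replicates 1 and 3 and within the control range in replicate 2 (log2 difference 1.14, two-sided exact permutation p = 0.20, 0.27 adjusted over 4 ratios). The ratio of Tcf12 to Tcf3 rose above all controls in each Ptf1a cKO library, from 1.80, 2.06 and 2.34 to 2.79, 2.78 and 2.90 (log2 difference 0.46, two-sided exact permutation p = 0.10, 0.20 adjusted over 4 ratios).

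**Figure D4:**
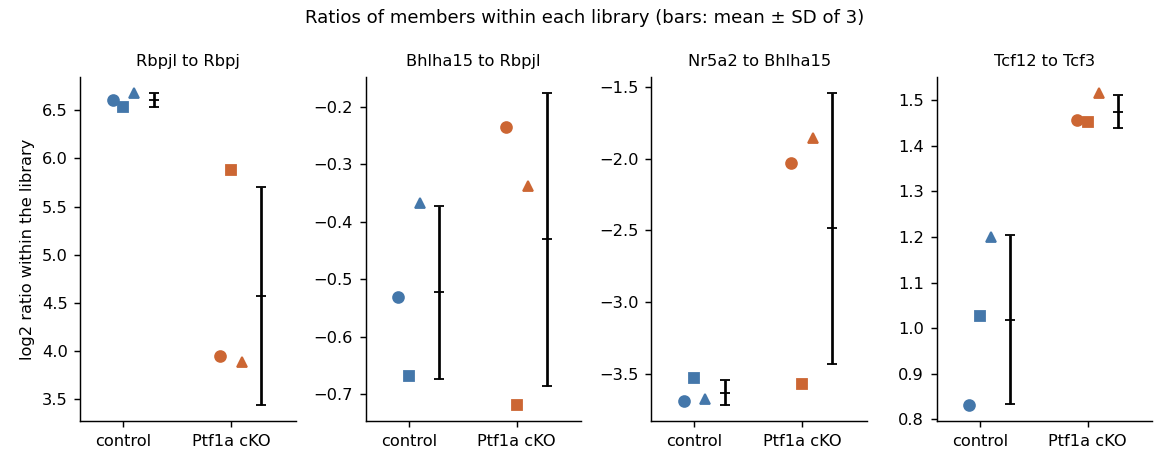
Log2 ratio of normalized counts for 4 pairs of genes within each library, with the mean and SD of each group of 3 beside the points. The ratio of Rbpjl to Rbpj is lower in all 3 Ptf1a cKO libraries and that of Bhlha15 to Rbpjl overlaps between the groups.

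To compare levels between genes, means were divided by the length of the merged exons in GENCODE. In the controls the order per kb was Rbpjl (3314 ± 131 normalized counts per kb, SD, n = 3), Bhlha15 (1624 ± 132), Ptf1a (402 ± 28.4), Nr5a2 (81.5 ± 2.39), Tcf3 (37.9 ± 5.29), Tcf12 (36.6 ± 1.73) and Rbpj (11.6 ± 0.97). Tcf3 and Tcf12 were the only neighbors in this order that did not differ beyond their spread. In Ptf1a cKO the order per kb was Rbpjl (822 ± 652, SD, n = 3), Bhlha15 (396 ± 241), Tcf12 (62.0 ± 9.90), Tcf3 (46.4 ± 6.29), Nr5a2 (39.2 ± 4.02), Ptf1a (22.1 ± 21.3) and Rbpj (9.65 ± 0.69). The mean of Ptf1a had moved from above both E proteins to below both of them, but in Ptf1a cKO replicate 2 Ptf1a stayed above Tcf3. In Ptf1a cKO, Bhlha15 and Tcf12 were the only neighbors whose ranges of mean ± SD did not overlap. Such ranges ignore that the genes were measured in the same libraries. Per kb of merged exons, Rbpjl was above Bhlha15, Tcf12 above Tcf3 and Tcf3 above Nr5a2 in every Ptf1a cKO library. The order of Tcf3 and Nr5a2 depended on the length used. By the longest coding transcript (2950 bases for Tcf3 and 4733 for Nr5a2), Tcf3 stood below Nr5a2 in Ptf1a cKO replicate 1. Ptf1a was above Nr5a2 in replicate 2 and below Rbpj in replicate 3.

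The promoters of the 4 genes that fell are shown because Ptf1a and Rbpjl are textbook targets of PTF1, and because Rbpjl, Bhlha15 and Nr5a2 fell in Ptf1a cKO. Ptf1a itself is the deleted gene, so its fall was set by the design. In the study's mice the segment that Cre removes begins upstream of the Ptf1a window, so the deleted allele lacks that window. RefSeq windows on GRCm38.p6 were found for all 7 genes, with 11 transcription starts, and the 250 bases before each start were searched on both strands. Capitals mark CACCTG (or CAGGTG), an E-box bound by PTF1, and TTCCCA (or TGGGAA), the core of the TC-box. CACCTG was present in 17.2% of 32851 windows of the same length, TTCCCA in 21.6%, and both within 20 bases of each other in 0.746%. The reads were aligned by the authors to mm9, so these positions are those of the RefSeq table and not of the files.
Ptf1a (chr2:19445413-19445662, plus strand): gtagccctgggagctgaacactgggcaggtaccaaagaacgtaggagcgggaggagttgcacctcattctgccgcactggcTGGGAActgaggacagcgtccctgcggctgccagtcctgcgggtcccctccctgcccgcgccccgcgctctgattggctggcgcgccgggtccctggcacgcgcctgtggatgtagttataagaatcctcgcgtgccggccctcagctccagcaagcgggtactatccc
Rbpjl (chr2:164402944-164403193, plus strand): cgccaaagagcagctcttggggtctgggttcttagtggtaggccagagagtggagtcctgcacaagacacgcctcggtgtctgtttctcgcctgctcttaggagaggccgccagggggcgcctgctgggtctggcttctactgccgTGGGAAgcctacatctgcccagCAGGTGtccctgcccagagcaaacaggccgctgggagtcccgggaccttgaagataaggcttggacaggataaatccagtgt
Bhlha15 (chr5:144190036-144190285, plus strand): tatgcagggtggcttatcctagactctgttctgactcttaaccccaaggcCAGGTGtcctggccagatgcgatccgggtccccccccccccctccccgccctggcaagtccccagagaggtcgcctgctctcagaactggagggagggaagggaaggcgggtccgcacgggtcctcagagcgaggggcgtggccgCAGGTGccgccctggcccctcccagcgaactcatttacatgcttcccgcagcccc
Nr5a2, upstream start (chr1:136960449-136960698, minus strand): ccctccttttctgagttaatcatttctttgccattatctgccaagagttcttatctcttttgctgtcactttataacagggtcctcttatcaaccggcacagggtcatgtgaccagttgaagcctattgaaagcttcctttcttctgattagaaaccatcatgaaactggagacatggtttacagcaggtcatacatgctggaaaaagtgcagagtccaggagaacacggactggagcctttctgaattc
Nr5a2, downstream start (chr1:136953631-136953880, minus strand): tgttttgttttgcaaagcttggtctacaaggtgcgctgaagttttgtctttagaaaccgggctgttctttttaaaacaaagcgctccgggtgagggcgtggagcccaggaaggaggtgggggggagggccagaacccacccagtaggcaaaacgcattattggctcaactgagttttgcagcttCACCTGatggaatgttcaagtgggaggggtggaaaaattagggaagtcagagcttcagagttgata
In the Rbpjl window TGGGAA began 104 bases before the start and CAGGTG 82 bases before it, with 16 bases between them. This was the only window of the 11 with both motifs within 20 bases. The Ptf1a window held TGGGAA 169 bases before the start and no CACCTG. The Bhlha15 window held CAGGTG 200 and 55 bases before the start, and that of the downstream Nr5a2 start held CACCTG 66 bases before it, in both cases without TTCCCA. The upstream Nr5a2 start had neither motif. Of the genes that did not fall, an Rbpj window held both motifs farther apart, and the windows of Tcf3 and Tcf12 held neither. A match in these letters is a description of the sequence and not evidence of binding, and sites outside the windows were not searched.

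Genes whose profile over the 6 libraries was most like that of each reduced factor were listed by the root mean square difference of log2 values, each taken relative to its control mean. Nearest to Ptf1a were Pkd1l2, a gene of the polycystin family (0.51), Fgf21, a secreted growth factor (0.51), Tmed11, of a family of cargo receptors of the early secretory pathway (0.55), Cldn9, a claudin (0.66), and Gls2, a glutaminase (0.66). Fgf21 held 480.3, 430 and 394 normalized counts in the controls and 12.9, 88.9 and 14.6 in Ptf1a cKO, again with most in replicate 2. Nearest to Rbpjl were Matn4, its neighbor on the other strand (0.098), the zymogen granule protein gene Zg16 (0.13) and Bhlha15 (0.18). Nearest to Bhlha15 were Zg16 (0.12), the kallikrein gene Klk1 (0.15) and 4930415O20Rik (0.16). Nearest to Nr5a2 were Ceacam1, an adhesion molecule (0.077), Zfp775, a zinc finger gene (0.082), and Map2, a microtubule-associated protein (0.098). Among the 7 genes the closest pair was Rbpjl and Bhlha15, while Rbpjl and Rbpj, despite their shared ancestry, differed by 1.58. The points share the scaling and the acinar content of their libraries, and the differences were not tested.

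Around the E proteins, 6 of 7 genes for E proteins and their ID inhibitors were in the table, of which Tcf12 rose and Id1 fell (median log2 fold change 0.055, against 0.036 over all genes). Over all genes 16.8% passed the test as lower and 17.1% as higher, the shares to set beside the counts of each list. ID proteins hold E proteins away from DNA. Id1 held 37.4, 48.9 and 64.1 normalized counts in the controls and 27.6, 17.6 and 32.3 in Ptf1a cKO (log2 fold change -0.88, adjusted p = 0.0379, limma). Id1 was lower in every Ptf1a cKO library, but the call was lost without control replicate 2 or 3 or without Ptf1a cKO replicate 1 or 2. Id2 (log2 fold change -0.10), Id3 (-0.15) and the E protein gene Tcf4 (0.21) did not pass the test.

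Of 15 genes for cofactors of RBPJ, 12 were measured, of which 2 fell, 1 rose and 9 did not pass the test (median 0.081). Of all genes 33.9% passed in either direction. The corepressor gene Ctbp1 (log2 fold change -0.33) fell and Ncor1 (0.39), also of a corepressor, rose, while the coactivator genes Maml1 (-0.012) and Ep300 (0.17) did not pass the test. The calls of Ctbp1 and Ncor1 did not hold throughout, since each was lost when control replicate 1 or 3 or Ptf1a cKO replicate 1 or 3 was left out, and that of Ctbp1 also without control replicate 2. Of 7 measured genes for Notch receptors and targets of RBPJ, 3 fell and 1 rose (median -0.53). Dtx1, which encodes the ubiquitin ligase Deltex, fell from 514, 440.4 and 615 to 93.5, 156 and 99.7 normalized counts (log2 fold change -2.16, adjusted p = 1.60e-04, limma). The receptor genes Notch1 (-0.66) and Notch2 (0.75) moved in opposite directions, Heyl (-0.53) fell, and Hes1 (-0.64) did not pass the test (adjusted p = 0.125, limma). The call of Dtx1 held with any single library left out, that of Notch1 was lost without control replicate 2 or 3, that of Notch2 without any control replicate or Ptf1a cKO replicate 3, and that of Heyl without Ptf1a cKO replicate 1 or 3.

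Of 5 genes known as targets of MIST1, 4 fell (median -1.79). Rab26, a small GTPase of secretory granules, went from 624, 623 and 540.3 normalized counts to 99.1, 156 and 38.4 (log2 fold change -2.76). Atp2c2, a calcium pump of the Golgi (-2.01), Gjb1, the gap junction protein connexin 32 (-1.79), and Rab3d, a GTPase of zymogen granules (-0.59), also fell, and Cdkn1a (0.92), which encodes a cell cycle inhibitor, did not pass the test. Rab3d kept at least 1757 normalized counts in each Ptf1a cKO library, so it fell less than the factor itself. Of 7 known targets of NR5A2, 3 were analysed here. Cel, the carboxyl ester lipase (-2.95), and Scarb1, a lipoprotein receptor (-0.85), fell, and Nr0b2, the corepressor SHP (-0.49), did not pass the test (adjusted p = 0.156, limma).

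Other transcription factors of acinar cells moved in both directions. Of 14 measured, 2 fell, 3 rose and 9 did not pass the test (median -0.12). This is close to the share of all genes, of which 33.9% passed in either direction. Atf4, of the integrated stress response (log2 fold change -1.04), and Klf15, a Kruppel-like factor (-1.04), fell. Myrf, a membrane-bound factor, held 809, 853 and 712 normalized counts in the controls and 1909, 1829 and 2027 in Ptf1a cKO (1.28). Hnf4a (0.61) and Creb3l1 (0.53, a call lost without control replicate 1) rose as well, while Gata4 (-0.14), Gata6 (0.13), Pdx1 (-0.13) and Xbp1 (-0.039) did not pass the test. Of the 31 digestive enzymes and secreted acinar proteins, 21 fell and 2 rose (median -2.10), the largest falls being those of Cela2a (-3.11), Cel (-2.95) and Pnliprp1 (-2.88). Among 8 measured factors of ducts and progenitors, 5 rose and none fell (median 1.21), led by Sox9 (2.21), Ehf (2.19) and Glis3 (1.31, a call lost without control replicate 1 or Ptf1a cKO replicate 3), while Hes1 and Klf4 (0.28) were among those that did not pass. When every library was given the same total, the list medians were -0.61 for the secreted acinar genes, -0.31 for the targets of MIST1, 0.62 for those of NR5A2, 0.91 for the Notch genes, 1.35 for other acinar transcription factors, 1.51 for the E proteins and ID inhibitors, 1.55 for the cofactors of RBPJ and 2.60 for the factors of ducts and progenitors, beside 1.49 for all genes. The medians of the Notch genes, the other acinar factors and the NR5A2 targets changed sign on that scale and stayed below the median gene.

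**Figure D5:**
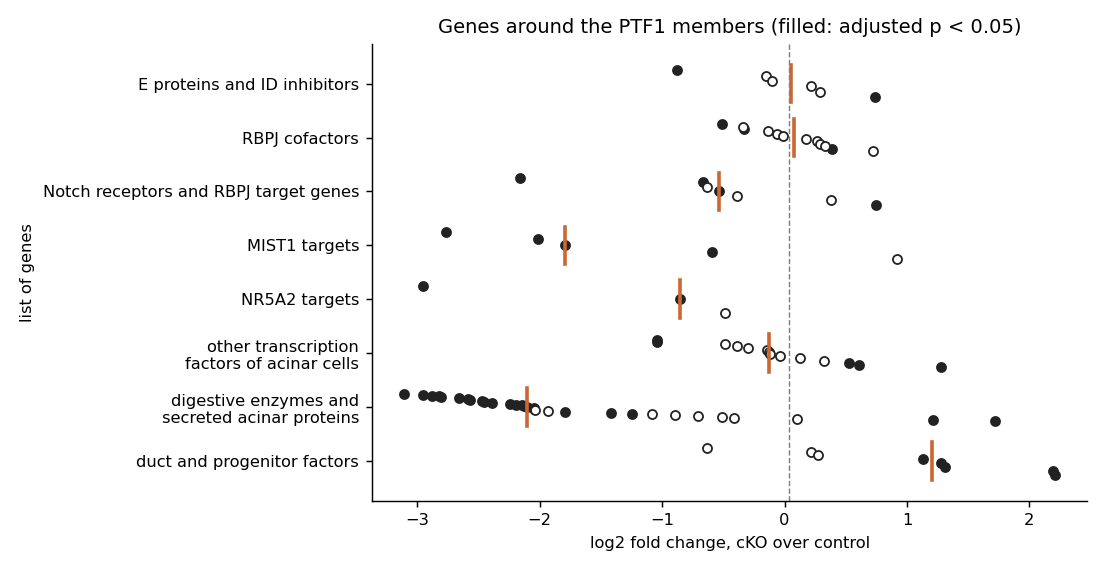
Log2 fold change (Ptf1a cKO over control) of each measured gene in 8 lists, with filled points for an adjusted p under 0.05, an orange bar at the median of the list and a dashed line at the median of all genes (0.036). The targets of MIST1 and the secreted acinar genes lie mostly to the left and the factors of ducts and progenitors to the right, while other acinar transcription factors lie on both sides.

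Markers of other cell types moved in the same libraries. Of 5 measured stellate or fibroblast markers 4 rose, and their sum went from between 2420 and 2812 normalized counts in the controls to between 4555 and 8035 in Ptf1a cKO, highest in replicate 2 where Tcf3 and Tcf12 were lowest. Of 4 measured leukocyte markers 2 rose, Cd68 and Lyz2, and their sum went from between 255 and 495 to between 710 and 1793, highest in replicate 3 where Tcf3 and Tcf12 were highest too. Cd3e, of T cells, was not analysed here. Of 6 measured ductal markers 4 rose, while Krt19 (log2 fold change -0.012) and Krt7 (0.44) did not pass the test. The sum of the 6 went from at most 4463 to at least 25038, with the most in replicate 3 and the least in replicate 2. Most of it was Spp1 in Ptf1a cKO but not in the controls. Spp1 alone held 87512, 20971 and 105340 in Ptf1a cKO replicates 1, 2 and 3, so the rise and order of the sum are those of Spp1. None of the 3 endothelial, 5 endocrine and 3 fat markers passed the test in limma, and none had an unadjusted p under 0.05. Whether these other cell types had a part in the levels of Tcf3, Tcf12 or Nr5a2 was not tested.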

How the data were processed

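The authors sequenced RNA from the whole pancreas of each mouse and deposited a single table of normalized read counts, a signal scaled by them across 3 control and 3 Ptf1a cKO libraries. Per the submitters' processing notes, the tools were TopHat2 2.0.4, Bowtie 0.12.7.0, SAMtools 0.1.18.0 and HTSeq 0.6.0, with the mm9 build. Whole reads could not be recovered from the values, so no count model was fitted. The study states the aligned reads of each library, but the table does not give the reads behind a single value. Totals of the deposited normalized counts on genes lay between 5527104 and 21175836 and are not depths. Another 3 rows that name no gene, nearly all of it reads with more than a single alignment, held between 75.7% and 82.6% of each column and were left out.

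Groups were taken from the labels. Values were divided by 13.6 and log2 transformed with a pseudocount of 0.25 (3.41 normalized counts), so changes of low genes are understated, and compared with limma 3.58.1 (trend, Benjamini-Hochberg adjustment over 10245 genes, none removed by the minimum mean of 0.25). The script was tested on simulated data. Ratios were compared with two-sided exact permutation tests. Each library is 1 mouse. The 7 genes and all gene lists were chosen with earlier results of these data known. Named were the 7 genes, the 3 largest called changes of each list, members of the E protein, RBPJ cofactor, MIST1 and NR5A2 lists, and the nearest profiles; other genes were named, and the setting against the acinar sum, the female mice and the sex interaction chosen, after the values were seen. Some genes of the lists are counted but not reported here by name. Positions and exon lengths are from GENCODE (GRCm38) and promoters from RefSeq.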

Additional observations from a re-analysis of the deposited data

Results flagged for a closer look

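Tcf3 stood out because the 2 sexes moved in opposite directions. The male Ptf1a cKO mouse had 132 normalized counts of Tcf3 against 135.3 in the male control, a difference of -3.26, while the female Ptf1a cKO mice had 143 and 171 against 127 and 103, a difference in means of 42.5. There was 1 male per group, so the male difference has no replicate check. The interaction of sex and genotype in limma was -0.48 on the log2 scale (standard error 0.32, unadjusted p = 0.17, adjusted p = 1.0 over all genes) and did not pass the test. The same interaction was larger for Ptf1a (2.19, unadjusted p = 7.33e-04, adjusted p = 0.198), Rbpjl (1.74, unadjusted p = 4.45e-04, adjusted p = 0.150) and Bhlha15 (1.32, unadjusted p = 0.00335, adjusted p = 0.449), which fell in both sexes and less in the male, and none of these passed after adjustment either. Over all genes 4 passed it and 490 had an unadjusted p under 0.05, and sex cannot be told apart from the single male Ptf1a cKO library.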

How the results depend on the processing

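Ptf1a, Rbpjl, Tcf12 and Bhlha15 kept their direction and passed the test in all 19 alternatives each, and Nr5a2 in 18. Giving every library the same total called 9719 genes in place of 3475, with 98.7% of them higher in place of 50.4%. It turned Rbpj to 1.19 (adjusted p = 2.28e-04) and Nr5a2 to 0.43 (adjusted p = 0.101), brought Tcf3 to 1.75, past the threshold (adjusted p = 1.29e-07), and turned Atf4 to 0.45, Klf15 to 0.45, Id1 to 0.49, Ctbp1 to 1.16, Notch1 to 0.82, Heyl to 0.91, Rab3d to 0.90 and Scarb1 to 0.62. That scale multiplies all genes of a library by 1 factor, and the median gene stood at 1.49 on it. With the digestive enzymes left out of the total, 3834 genes were called, 73.1% of them higher, and Tcf3 passed the test at 0.46 (adjusted p = 0.0399). An adjusted p under 0.01 left 1794 genes. With single libraries left out, between 2363 and 3601 genes were called, and the log2 fold changes ranged from -5.10 to -3.88 for Ptf1a, -2.89 to -1.94 for Rbpjl, -0.32 to -0.20 for Rbpj, 0.17 to 0.37 for Tcf3, 0.62 to 0.83 for Tcf12, -2.66 to -1.89 for Bhlha15 and -1.12 to -0.97 for Nr5a2. The ratio of Bhlha15 to Rbpjl ranged from -0.0058 (without Ptf1a cKO replicate 1) to 0.24, the one change of sign among the 4 ratios. With the replicate number as a block 3525 genes were called, and no call of the 7 genes changed, while among the list genes tried those of Ncor1 (adjusted p = 0.0665) and Ctbp1 (adjusted p = 0.0530) were lost. Same-numbered libraries correlated at 0.039, 0.13 and 0.14 in their deviations from the group means, so the numbers were not taken to pair the mice, and Ptf1a cKO replicate 1 correlated best with control replicate 2. With females alone, chosen after seeing the data, 2669 genes were called. edgeR and DESeq2 were not run, because the table holds no whole reads. The reads behind each low value are not given by the table.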
